A study of Mus musculus with 12 samples.

Results

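Etv1, Etv4 and Etv5 encode the PEA3 group of ETS transcription factors, and each was read as 1 gene of 52636 in RNA sequencing of cultured mouse embryonic salivary glands. The genes were found by matching their symbols to the Ensembl identifiers of the count table (Etv1 is ENSMUSG00000004151, Etv4 is ENSMUSG00000017724 and Etv5 is ENSMUSG00000013089), and all 3 passed the filter on low counts that left 15859 genes to test. Glands were dissected from the lower jaw at E13.5 and kept on filter membranes for 2 days, in 5 groups and 12 libraries. FGFRi libraries (n = 3) came from wild-type glands with SU5402, an inhibitor of the kinase activity of FGF receptors, at 2.5 µM. DMSO libraries (n = 3) came from wild-type glands with the solvent alone. HOM libraries (n = 2) came from K14Cre-Fgfr2b -/- glands, in which the K14 promoter of a basal keratin drives Cre in epithelium, where the Fgfr2b isoform of the receptor is lost, and leaves the surrounding mesenchyme with its receptors. HET (n = 2) and WT (n = 2) libraries came from heterozygous and wild-type littermates, and the 3 groups of this cross were cultured without inhibitor or solvent. The labels do not say whether the WT littermates carried Cre, how many glands went into a library, or whether the libraries of a group came from separate embryos or litters. The p-values therefore measure the spread between these libraries, which may be technical.

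PEA3 factors are switched on by FGF receptors through RAS and ERK in many branching organs, and their transcripts are widely read as a gauge of FGF signalling. In the absence of ERK activity the repressor Capicua, encoded by Cic, sits on short DNA motifs built around TGAATG and holds these genes down; active ERK releases it. At the protein level the COP1 and DET1 ubiquitin ligase marks all 3 factors for destruction. In the mouse kidney and lung, Etv4 and Etv5 act together in the growing tips of epithelial branches, and Etv1 is known from sensory and motor circuits and from the pacemaker-like cells of the gut.

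RefSeq's promoter table for the build GRCm38.p6 held 2 transcript starts each for Etv1 and Etv5, and Etv4 was not matched. The 250 bases before each start were searched on either strand for TGAATG, the core that Capicua recognises, a motif chosen after the sequences had been seen. Both Etv5 windows lie on the minus strand of chromosome 16, and they are shown because they differ in this motif, with matches to TGAATG or to its reverse complement CATTCA in capitals.
Etv5 upstream start, chr16:22439571-22439820: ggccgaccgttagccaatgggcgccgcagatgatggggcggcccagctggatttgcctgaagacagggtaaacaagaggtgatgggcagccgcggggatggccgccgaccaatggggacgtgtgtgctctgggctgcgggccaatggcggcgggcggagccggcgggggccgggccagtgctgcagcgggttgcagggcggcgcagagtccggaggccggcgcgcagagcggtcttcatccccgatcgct
Etv5 downstream start, chr16:22438369-22438618: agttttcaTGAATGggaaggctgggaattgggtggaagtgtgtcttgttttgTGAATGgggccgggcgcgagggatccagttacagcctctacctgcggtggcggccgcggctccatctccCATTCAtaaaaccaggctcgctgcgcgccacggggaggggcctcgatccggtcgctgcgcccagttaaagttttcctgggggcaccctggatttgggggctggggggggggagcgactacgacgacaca
The downstream window of Etv5 held 3 matches, and the upstream one and both Etv1 windows held 0. Of 32851 promoter windows of the same length in the table, several of them from the same gene, 10.9% held at least 1 match and 43 (0.131%) held 3 or more. A second motif searched, AGGAAGT, had 0 matches in the windows of both genes, and 7.69% of all windows held at least 1. The bases just after the downstream start were not found in any GENCODE M21 transcript of Etv5. A match describes the letters only, and the counts per gene do not separate the starts.

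Total counts ran from 6043701 to 22322182 per library, and the counts of a member from 84 (Etv4 in FGFRi 1) to 5452 (Etv5 in HOM 2). Ribosomal RNA-like genes held 16.3% (FGFRi 2) to 40.7% (FGFRi 1) of the total counts of a library. Mitochondrial genes held 3.93% (HOM 2) to 14.2% (FGFRi 1). No other annotated gene overlapped any of the 3 genes. Levels are CPM, the counts of a gene over the TMM-scaled library total. Y-linked genes summed to at most 0.183 CPM in any FGFRi library, whereas the DMSO libraries split into DMSO 2 with 145 CPM and DMSO 1 and DMSO 3 with at most 1.27 CPM. Their sums were at most 0.0827 CPM in both HOM libraries and 120 to 138 CPM in the 4 HET and WT libraries, so that genotype and sex cannot be told apart in any comparison of HOM with these controls. Summed counts of 15 pan-epithelial genes were 1667 to 1869 CPM in FGFRi and 2238 to 2534 CPM in DMSO, and 1710 to 1813 CPM in HOM, 2086 to 2201 CPM in HET and 2361 to 2464 CPM in WT. The sums of 17 mesenchymal genes were 4266 to 5849 CPM in FGFRi and 2639 to 2766 CPM in DMSO, and 4465 to 4725 CPM in HOM, 4001 to 4392 CPM in HET and 2836 to 2930 CPM in WT. Sums of 14 skeletal muscle genes were 208.6 to 914.9 CPM in FGFRi and 34.4 to 107.9 CPM in DMSO, and 249.9 to 272.2 CPM in HOM, 132.2 to 242.7 CPM in HET and 18.1 to 24.5 CPM in WT, and the part of these makeup differences in the results was not tested. Each pan-epithelial gene, Epcam and Cdh1 among them, was read in every group. In such bulk samples, fewer cells of a type and less RNA per cell cannot be told apart.

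The inhibitor lowered all 3 PEA3 genes, where 10.7% of all genes tested were called lower. Etv4 was read at 15.4, 18.9 and 15.6 CPM in FGFRi 1 to 3, against 42.2, 36.5 and 36.9 CPM in DMSO 1 to 3. The highest FGFRi library was thus well below the lowest DMSO library, and Etv4 fell to 0.434 times its DMSO level, a log2 change of -1.21 ± 0.11 (SE, edgeR adjusted p = 6.22e-06). By p it ranked at place 30 among the 15859 genes.

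Etv1 had 21.8, 26.8 and 37.1 CPM in FGFRi 1 to 3, against 68.9, 77.9 and 67.8 CPM in DMSO 1 to 3. Its groups did not overlap, and the inhibited libraries differed more among themselves than did those of Etv4. The log2 change was -1.28 ± 0.15 (SE, edgeR adjusted p = 4.54e-05), or 0.411 times the DMSO level. Without FGFRi 3, the highest of the inhibited libraries, it was -1.55.

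Etv5, by far the most abundant of the 3, had 90.8, 112 and 96.1 CPM in FGFRi 1 to 3, against 192, 157 and 149.9 CPM in DMSO 1 to 3. The groups did not overlap here either, but the fall was the smallest, to 0.601 times the DMSO level (log2 change -0.73 ± 0.10, SE, edgeR adjusted p = 1.68e-04). Groups without overlap were common in this comparison, at 37.7% of all genes tested. Each of the 3 genes kept its call without any 1 of the 6 libraries, DMSO 2 with its Y-linked counts included. Scaling the libraries to the pan-epithelial sum, which moved the median log2 change of all genes by 0.44, left the 3 changes at -0.86 for Etv1, -0.77 for Etv4 and -0.30 for Etv5 (edgeR adjusted p = 4.70e-04, 8.92e-05 and 0.0122). Of 12 acinar and end bud genes, 10 were called lower and 0 higher with FGFRi, against 10.7% lower and 9.73% higher of all genes. Their sums were 324 to 776 CPM in FGFRi and 838 to 1547 CPM in DMSO. The part of these genes in the falls was not tested. The pan-epithelial sum was lower in FGFRi than in DMSO, and the 3 changes passed the threshold against that sum.

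**Figure D1:**
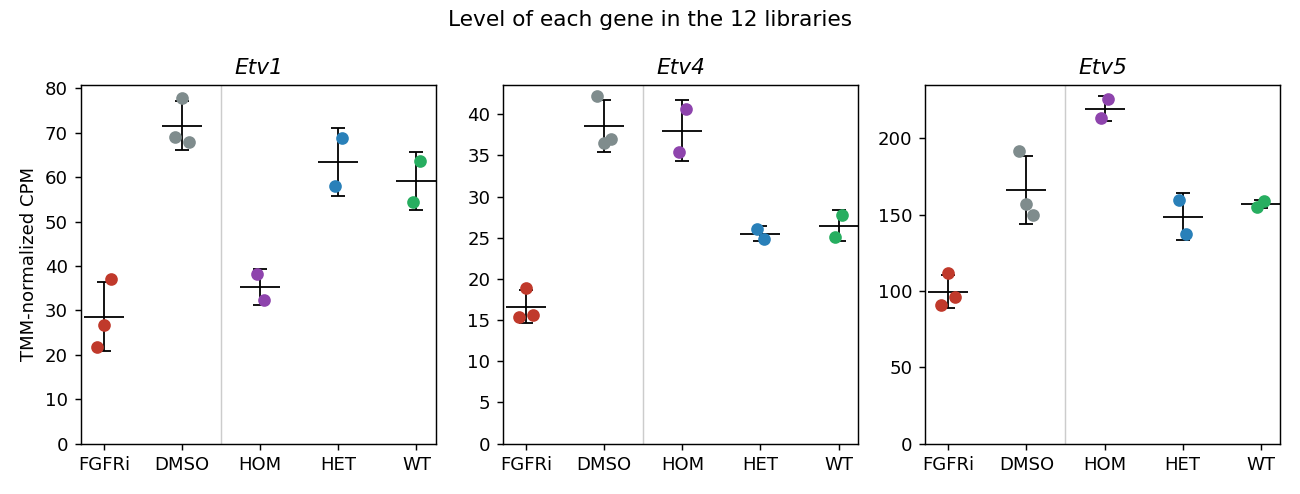
TMM-normalized CPM (vertical axes, each from 0) of Etv1, Etv4 and Etv5 in the libraries of each group, as points, with the group mean and SD as bars (n = 3 for FGFRi and DMSO, n = 2 for HOM, HET and WT). All 3 genes are lower in FGFRi than in DMSO, while in HOM the points of Etv1 lie below those of HET and WT and the points of Etv4 and Etv5 above them.

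In the deletion comparison, where the groups differed in Y-linked counts as well as genotype, the PEA3 genes split. Etv4 and Etv5 were higher in HOM glands than in their littermates and Etv1 was lower. Among all genes tested 3.44% were called higher and 2.44% lower in this comparison. Etv4 had 35.4 and 40.6 CPM in HOM 1 and HOM 2, against 26.1 and 24.8 CPM in HET 1 and HET 2 and 25.1 and 27.8 CPM in WT 1 and WT 2. Both HOM libraries exceeded every littermate library, by a log2 change of 0.56 ± 0.10 (SE, edgeR adjusted p = 0.00493) or 1.47 times.

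Etv5 had 214 and 226 CPM in HOM 1 and HOM 2, against 159.5 and 138 CPM in HET 1 and HET 2 and 155 and 159 CPM in WT 1 and WT 2. The groups again did not overlap, and the log2 change was 0.52 ± 0.10 (SE, edgeR adjusted p = 0.00657), or 1.44 times. These were the highest Etv5 levels of the 12 libraries, above the 149.9 to 192 CPM of the DMSO glands.

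Etv1 went the other way, at 38.2 and 32.4 CPM in HOM 1 and HOM 2, against 57.9 and 68.8 CPM in HET 1 and HET 2 and 54.4 and 63.7 CPM in WT 1 and WT 2. It fell to 0.575 times the littermate level (log2 change -0.80 ± 0.15, SE, edgeR adjusted p = 0.00657), with no overlap. Genes without overlap in this comparison made up 25.6% of all genes tested.

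Without HOM 2 the log2 changes were -0.68, 0.45 and 0.48 for Etv1, Etv4 and Etv5, and none passed (edgeR adjusted p = 0.171, 0.147 and 0.132). That fit leaves a lone HOM library, assumed to vary like the other groups, and HOM 1 lay outside the range of the 4 littermate libraries for each of the 3 genes. Without HOM 1 the 3 calls held. With a covariate for Y-linked counts, whose effect on the PEA3 genes can be estimated from the DMSO libraries alone, the log2 changes were -0.61, 0.46 and 0.43 (edgeR adjusted p = 0.540, 0.512 and 0.548). Within the DMSO group, the library with Y-linked counts, DMSO 2, had 36.5 CPM of Etv4, against 42.2 and 36.9 CPM in DMSO 1 and DMSO 3. It had 157 CPM of Etv5, between the other 2 solvent libraries, and 77.9 CPM of Etv1, the highest of the 3.

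The HOM glands had lower pan-epithelial and higher mesenchymal sums than WT glands, and the mesenchymal sum of HET glands lay nearer to HOM. Of 12 acinar and end bud genes, 3 were called lower and 0 higher in HOM, against 2.44% lower and 3.44% higher of all genes. Their sums were 645 to 646 CPM in HOM, 1074 to 1295 CPM in HET and 932 to 938 CPM in WT. Against HET alone, where 1.49% of all genes and 0 of 17 mesenchymal genes were called, Etv4 and Etv5 were higher by 0.58 ± 0.12 and 0.56 ± 0.12 on the log2 scale and Etv1 was lower, at -0.85 ± 0.17 (SE, n = 2 each, edgeR adjusted p = 0.0237, 0.0263 and 0.0207). Of the 15 pan-epithelial genes, Spint1 and Myo5b were called lower in HOM than in HET, both at -0.54 (edgeR adjusted p = 0.0129 and 0.0122). Against WT alone, where 7.56% of all genes were called, the changes were 0.53, 0.48 and -0.75 for Etv4, Etv5 and Etv1 (edgeR adjusted p = 0.0149, 0.0217 and 0.0167). Per 1000 counts of the pan-epithelial list, Etv4 reached 20.7 and 22.4 counts in HOM, against 11.9 in each HET library and 10.6 and 11.3 in WT. Etv5 stood at 125 and 124 counts on that scale in HOM, against 72.5 and 66.0 in HET and 65.7 and 64.6 in WT.

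Per 1000 counts of the mesenchymal list the picture differed. Etv4 had 7.92 and 8.60 counts in HOM, against 5.95 and 6.21 in HET and 8.86 and 9.48 in WT, so that HOM lay between its control groups. Etv5 likewise had 47.8 and 47.7 counts in HOM, against 36.3 and 34.4 in HET and 54.6 and 54.3 in WT. Scaled to the mesenchymal sum, the changes of Etv4 and Etv5 in HOM against both controls were 0.15 and 0.12 on the log2 scale and did not pass (edgeR adjusted p = 0.439 and 0.550). Etv1 was lower in HOM against both controls under the epithelial scaling (-0.43, edgeR adjusted p = 0.0346) and the mesenchymal one (-1.20, edgeR adjusted p = 0.00106). Whether the excess of Etv4 and Etv5 lay in epithelium or mesenchyme was not tested, since whole glands were read.

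**Figure D2:**
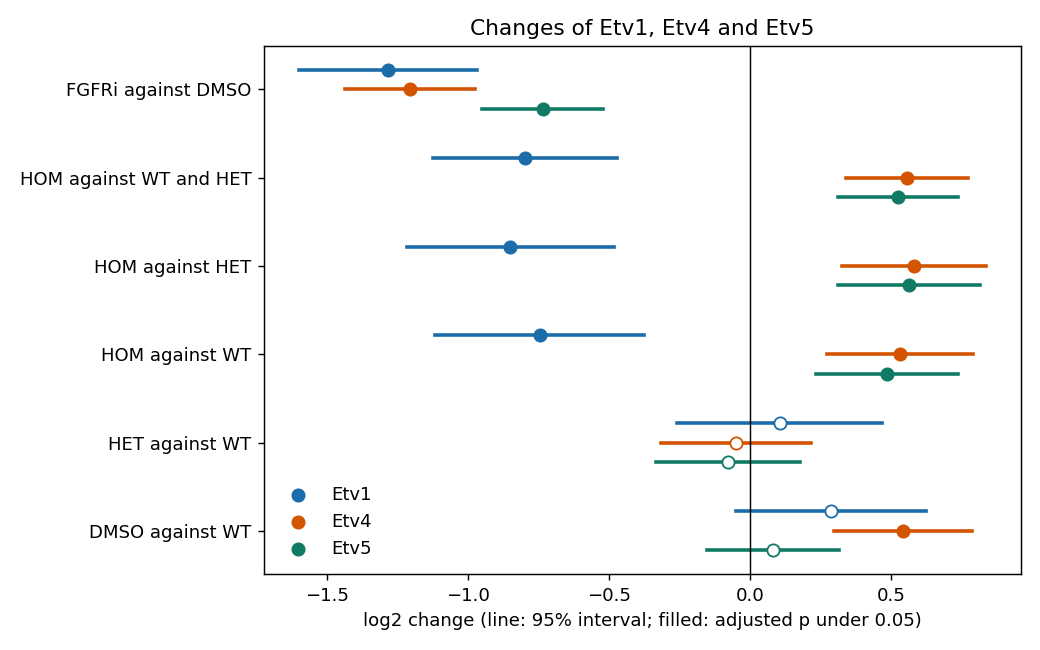
Log2 change of each gene (horizontal axis) with its 95% interval (lines) in 6 comparisons; filled points have an adjusted p under 0.05 over all genes. The 3 genes lie left of 0 with the inhibitor, while in the rows of HOM Etv4 and Etv5 lie right of 0 and Etv1 left, and in HET against WT all 3 intervals include 0.

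**Figure D3:**
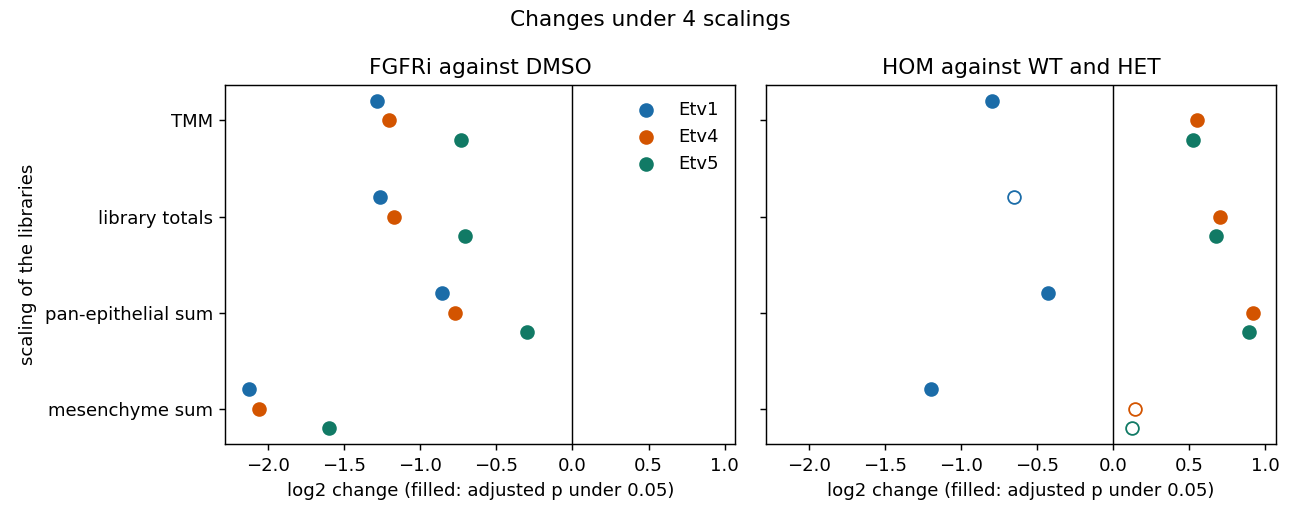
Log2 change of each gene (horizontal axis) with libraries scaled by TMM, by library totals, by the pan-epithelial sum and by the mesenchymal sum, for the inhibitor (left) and the deletion (right); filled points have an adjusted p under 0.05. Every inhibitor point is filled and left of 0, from -2.13 to -0.30, whereas the deletion points of Etv4 and Etv5 run from 0.92 under the epithelial to 0.12 under the mesenchymal scaling.

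Whether the change of a gene differed between the inhibitor and deletion comparisons was tested as the difference of the 2 effects, which share no library. On the lower side of that test, 1.41% of all genes tested were called. For Etv4 the inhibitor effect was below the deletion effect by a log2 difference of -1.76 ± 0.15 (SE, edgeR adjusted p = 1.30e-05), at place 6 of all genes by p. For Etv5 the difference was -1.26 ± 0.14 (SE, edgeR adjusted p = 2.00e-04). Etv1 differed by -0.49 with a 95% interval of -0.93 to -0.039 before adjustment, and did not pass (edgeR adjusted p = 0.252; 0.0289 without FGFRi 3). Of 1702 genes lower with the inhibitor, 24 were called higher in HOM and 180 lower in HOM: Etv4 and Etv5 were among the 24 and Etv1 among the 180.

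The ratio of Etv4 to Etv1 showed the split within each library. It was 0.927 and 1.25 in the HOM libraries, against 0.451 and 0.361 in HET and 0.462 and 0.436 in WT. In the inhibitor arm it was 0.706, 0.706 and 0.420 in FGFRi, against 0.612, 0.469 and 0.545 in DMSO, with overlap between the groups. The ratio of Etv5 to Etv4 was 6.04 and 5.55 in HOM, against 6.11 and 5.54 in HET and 6.17 and 5.73 in WT, groups that overlap. It was 5.89, 5.91 and 6.16 in FGFRi, against 4.54, 4.30 and 4.06 in DMSO, without overlap.

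**Figure D4:**
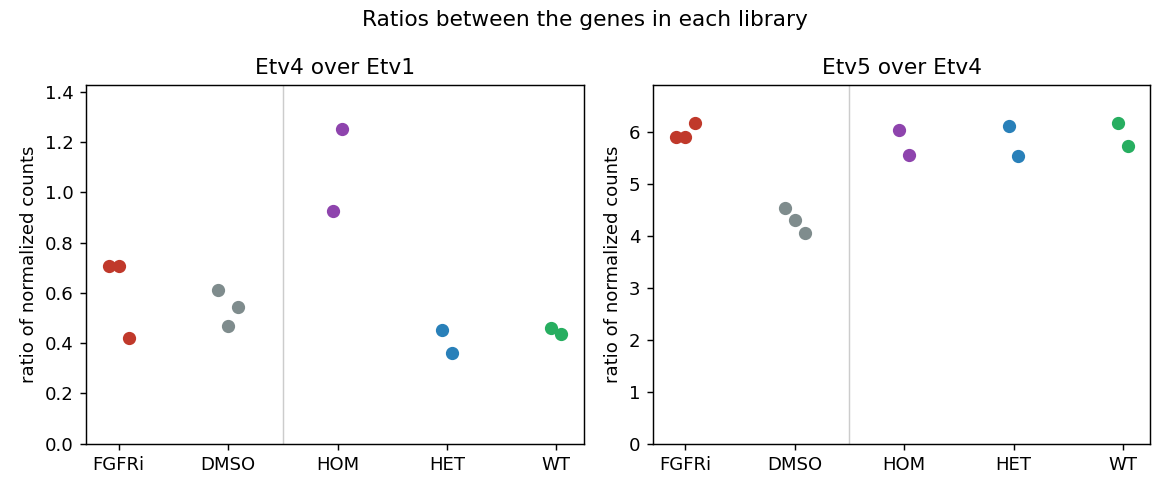
Ratio of normalized counts of Etv4 to Etv1 (left) and of Etv5 to Etv4 (right) in each library, by group, on axes from 0. The HOM libraries have the highest ratios of Etv4 to Etv1, 0.927 and 1.25, and the DMSO libraries the lowest of Etv5 to Etv4, 4.06 to 4.54.

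Loss of a single copy of the isoform gave no call for any PEA3 gene, in a comparison with 1.22% of all genes called. Etv4 averaged 25.5 ± 0.899 CPM in HET and 26.4 ± 1.88 CPM in WT (SD, n = 2 each), with a log2 change of -0.050 and a 95% interval of -0.32 to 0.22. Etv5 averaged 149 ± 15.5 CPM in HET and 157 ± 2.91 CPM in WT, with an interval of -0.33 to 0.18. For Etv1 the means were 63.4 ± 7.72 CPM in HET and 59.0 ± 6.53 CPM in WT, with an interval of -0.26 to 0.47. Both arms of the study could also be joined through their wild-type glands, DMSO against untreated WT, where 1.27% of genes were called higher. Etv4 was higher in DMSO, at 38.5 ± 3.15 CPM, than in WT, at 26.4 ± 1.88 CPM (SD, n = 3 and 2; log2 change 0.54 ± 0.11, SE, edgeR adjusted p = 0.0199), a call lost without WT 1 or WT 2 (edgeR adjusted p = 0.296 and 0.113). Etv1 and Etv5 differed by 0.29 and 0.080 in DMSO against WT (edgeR adjusted p = 0.452 and 0.816). Treatment and cross differ together between these groups, so their parts cannot be told apart.

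Put in order, Etv4 was highest in DMSO (38.5 CPM) and HOM (38.0 CPM), whose libraries overlap, then in WT (26.4 CPM) and HET (25.5 CPM), which overlap too, and lowest in FGFRi (16.6 CPM). The order of Etv5 was HOM (219.6 CPM), DMSO (166 CPM), WT (157 CPM), HET (149 CPM) and FGFRi (99.5 CPM), with overlap among the 3 middle groups. For Etv1 it was DMSO (71.5 CPM), HET (63.4 CPM), WT (59.0 CPM), HOM (35.3 CPM) and FGFRi (28.6 CPM), with overlap between DMSO and HET, between HET and WT, and between HOM and FGFRi. Per kilobase of annotated exon, Etv5 led in every group, at 24.3 RPKM in FGFRi, 53.5 RPKM in HOM and 40.5 RPKM in DMSO. Etv4 followed at 5.36, 12.2 and 12.4 RPKM in the same groups and Etv1 at 2.15, 2.65 and 5.38 RPKM. The Etv1 annotation spans 13296 exon bases over all its isoforms, against 3104 for Etv4 and 4103 for Etv5, so that its level per length is low if a shorter isoform was the main one.

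Among other genes that respond to FGF and ERK, a large share fell with the inhibitor and a single gene was called higher in HOM. Of 27 tested genes of this list, 13 were called lower and 0 higher with FGFRi, against 10.7% lower and 9.73% higher of all genes (median log2 change -0.38, against -0.015 over all genes). Under the pan-epithelial scaling 5 of the list were called lower and 6 higher, against 172 lower and 8213 higher of all 15859 genes. In HOM 1 of the 27, Spry4, was called higher and 0 lower, against 3.44% higher and 2.44% lower of all genes (median -0.0025, against 5.53e-04 over all genes). Spry4, a feedback inhibitor of the same receptors, had 11.3 ± 0.688 CPM in FGFRi and 14.7 ± 1.40 CPM in DMSO (SD, n = 3 each). Its log2 change was -0.40 (edgeR adjusted p = 0.0204), which was 0.048 under the pan-epithelial scaling and lost its call without FGFRi 1, FGFRi 2 or DMSO 2. It had 28.2 ± 2.08 CPM in HOM (SD, n = 2) and 19.5 ± 4.87 CPM in the 4 littermates, a log2 change of 0.56 (edgeR adjusted p = 0.00342), but only 0.25 against HET (edgeR adjusted p = 0.375). Under the mesenchymal scaling the change in HOM against both controls was 0.17 and not called (edgeR adjusted p = 0.399). Spry4 was also called higher in HET than in WT, at 0.62 (edgeR adjusted p = 0.0206), where 1.22% of all genes were called.

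The ephrin receptor gene Epha2 fell by 0.89 ± 0.11 on the log2 scale with the inhibitor, and Shisa2, known from Xenopus for holding immature FGF and Wnt receptors back in the endoplasmic reticulum, fell by 0.88 ± 0.11 (SE, n = 3 each, edgeR adjusted p = 8.68e-05 and 1.12e-04). The immediate early genes Egr1 and Ier2 fell by 1.29 ± 0.17 and 0.60 ± 0.090, the cyclin gene Ccnd1 by 0.82 ± 0.11 and the ERK phosphatase gene Dusp4 by 1.01 ± 0.16 (edgeR adjusted p = 1.15e-04, 3.49e-04, 1.45e-04 and 6.20e-04). Under the pan-epithelial scaling the inhibitor changes were -0.46 for Epha2, -0.45 for Shisa2, -0.84 for Egr1, -0.39 for Ccnd1 and -0.58 for Dusp4, all still called (edgeR adjusted p of 0.00138 to 0.00600). Ier2 lost its call there, at -0.16 (edgeR adjusted p = 0.180), and with library totals, at -0.58 (edgeR adjusted p = 0.0590). In HOM these 6 genes had log2 changes of 0.16 for Epha2, -0.0025 for Shisa2, -0.18 for Egr1, -0.085 for Ier2, -0.080 for Ccnd1 and -0.36 for Dusp4, none of which passed (edgeR adjusted p of 0.231 to 0.996). The difference between inhibitor and deletion passed for 5 of the 6, Dusp4 being the exception (edgeR adjusted p = 0.155), and of these 5 only Epha2 kept that call without any 1 library.

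**Figure D5:**
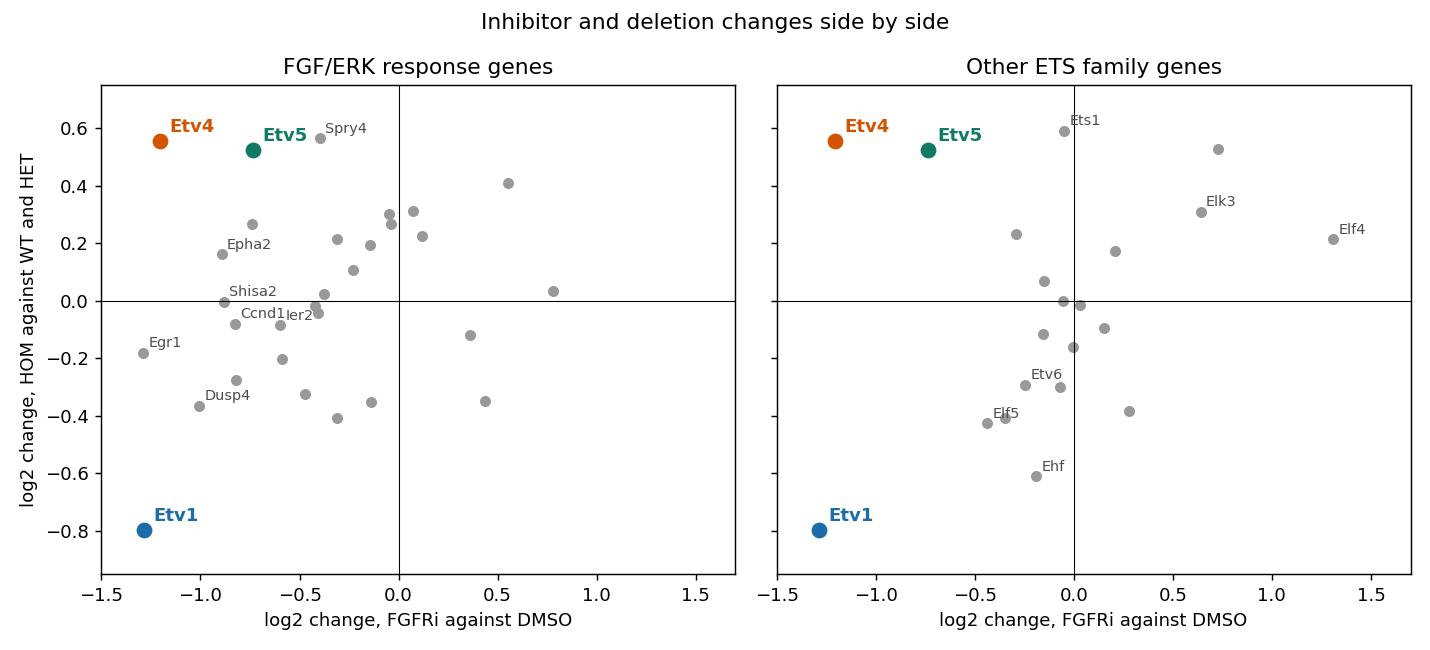
Log2 change with the inhibitor (horizontal axes) and in HOM against WT and HET (vertical axes) for 27 FGF/ERK response genes (left) and 18 other ETS family genes (right), with Etv1, Etv4 and Etv5 in colour. Etv4 and Etv5 lie in the upper left with Spry4 beside them, and Etv1 in the lower left corner at -1.28 and -0.80.

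Of 23 other ETS family genes listed, 18 were tested. With the inhibitor 2 were called higher (9.73% of all genes) and 2 lower (10.7% of all genes), and in HOM 1 was called higher (3.44% of all genes) and 2 lower (2.44% of all genes). With FGFRi, Elf4 and Elk3 were higher by 1.31 ± 0.20 and 0.64 ± 0.22 on the log2 scale, and Elf5, a factor of glandular epithelium, and Etv6, a repressor, were lower, at -0.44 ± 0.10 and -0.25 ± 0.080 (SE, edgeR adjusted p = 3.43e-04, 0.0487, 0.00471 and 0.0411). The Etv6 direction turned to 0.19 under the pan-epithelial scaling, which took the value of Elf5 to -0.011, and the Elk3 direction to -0.23 under the mesenchymal one. The Etv6 call was lost without any 1 of FGFRi 1, FGFRi 2, DMSO 1 or DMSO 2, and so was that of Elk3. In HOM, Ets1 was higher by 0.59 ± 0.10, and Ehf and Elf5, both epithelial, were lower at -0.61 ± 0.082 and -0.42 ± 0.100 (edgeR adjusted p = 0.00401, 6.46e-04 and 0.0206). Under the pan-epithelial scaling Ehf was -0.24 and Elf5 -0.055 (edgeR adjusted p = 0.0523 and 0.679), and under the mesenchymal one Ets1 was 0.19 (edgeR adjusted p = 0.293), none of them called. Ets1 lost its call without HOM 1 (edgeR adjusted p = 0.0516), and Elf5 without any 1 of HOM 1, HOM 2, HET 1 or WT 2 (edgeR adjusted p up to 0.269).

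Genes that control PEA3 factors gave no call. Of 7 tested genes for regulators of ETV activity or stability, 0 were called in either comparison by edgeR, and 1 in each had an unadjusted p under 0.05. These were Ddb1, part of the ubiquitin ligase, with FGFRi (-0.18, edgeR unadjusted p = 0.0417, adjusted p = 0.134), and Cop1 in HOM (-0.23, edgeR unadjusted p = 0.0467, adjusted p = 0.248). Under the pan-epithelial scaling, 7 and 5 of them were called higher with FGFRi and in HOM, against 8213 and 6946 of all 15859 genes. Under the mesenchymal scaling 7 and 4 were called lower, against 11159 and 6106 of all genes. Cic itself differed by 0.015 with the inhibitor, with a 95% interval of -0.14 to 0.17, and by 0.095 in HOM, with an interval of -0.069 to 0.26. Its partner genes Atxn1 and Atxn1l differed by -0.10 and -0.11 with the inhibitor and by -0.16 and 0.070 in HOM. Det1 and Cul4a, of the ligase, differed by -0.030 and -0.092 with the inhibitor and by 0.017 and -0.053 in HOM.

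Of 4 genes that depend on Etv4 and Etv5 in the mouse ureteric bud, 0 were called with the inhibitor by edgeR, and 1, Mmp14, had an unadjusted p under 0.05. Myb, Cxcr4, Met and Mmp14 differed by -0.26, -0.13, 0.046 and 0.24 (edgeR adjusted p = 0.186, 0.579, 0.844 and 0.0647). In HOM, the receptor gene Met fell to 30.1 ± 2.53 CPM, against 41.4 ± 4.96 CPM in the 4 littermates, and the protease gene Mmp14, also expressed by mesenchyme, rose to 213 ± 24.8 CPM, against 172 ± 5.28 CPM (edgeR adjusted p = 0.0487 and 0.0486). Of all genes, 2.44% were called lower and 3.44% higher there. Against HET alone or WT alone, 0 of the 4 were called by edgeR, and in each case Met and Mmp14 had an unadjusted p under 0.05. Cxcr4 and Myb differed by 0.27 and 0.11 in HOM (edgeR adjusted p = 0.297 and 0.714). Among the 5 FGF receptor genes, only Fgfr2 was called, lower by a log2 change of -0.31 with the inhibitor (edgeR adjusted p = 0.00942). In that comparison 10.7% of all genes were called lower, and the 15 pan-epithelial genes had a median log2 change of -0.40. The part of epithelial content in the Fgfr2 value was not tested. With the inhibitor, Fgfr1, Fgfr3, Fgfr4 and Fgfrl1 differed by -0.20, 0.45, 1.30 and -0.30. In HOM Fgfr1, Fgfr2, Fgfr3, Fgfr4 and Fgfrl1 differed by 0.12, -0.071, -0.44, 1.45 and 0.17, none past the threshold. Counts per gene do not separate the Fgfr2b isoform, so that the deletion could not be checked in these data.

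Over the 12 libraries, log2 levels of Etv4 and Etv5 had a Pearson r of 0.913, those of Etv1 and Etv4 0.573 and those of Etv1 and Etv5 0.412. These values take in the differences between the 5 groups, and r within the groups was not computed. The genes nearest to each, among 10366 with at least 5 CPM on average, were different for the 3 members. For Etv1 they included Unc13b, Pip5k1b, Wwc1 and Ceacam1 (r of 0.961 to 0.976). For Etv4 they were Eaf1, Atad3a, Slc3a2, Lcn2 and Bri3bp (r of 0.941 to 0.968), and for Etv5 Hmga2, Mcm5, Tcof1, Sema3b and Mta1 (r of 0.945 to 0.952). Since the genes were picked by r over these same libraries, a likeness in their changes was partly fixed by that choice. Of the last 10, Lcn2, Hmga2 and Sema3b shared the called fall with FGFRi and rise in HOM. The others were not called in HOM (edgeR adjusted p of 0.257 to 0.673).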

How the data were processed

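RNA was read from 12 libraries of cultured mouse salivary glands, prepared after ribosomal RNA depletion per the labels' protocols. The authors deposited counts per Ensembl gene, aligned with STAR to GRCm39 per the submitters' processing notes, and the counting step is not given in the sources used here. Symbols and exon lengths came from GENCODE M21, which matched 52489 of 52636 identifiers, and promoters from RefSeq (GRCm38.p6). No coordinates were carried between builds.

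The counts were tested with edgeR 4.0.16 in R 4.3.3, by the quasi-likelihood test with TMM scaling and 1 coefficient per group over all 12 libraries. Genes passed filterByExpr (minimum count 10 in a library, 15 in all), which left 15859, and p-values were adjusted by Benjamini-Hochberg over these. Calls needed an adjusted p under 0.05. The main deletion comparison set HOM against the mean of WT and HET. CPM and RPKM were computed here, and intervals are 95% intervals of the model. The fit was checked on simulated counts. Alternatives included DESeq2 1.42.0, limma 3.58.1 (voom), 4 other scalings, no filter, covariates and leaving out each library.

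Pairs of replicates differed by more than counting noise. The genes and lists were chosen with earlier results of these data known. Named were, beside the 3 members, up to 6 called genes with the smallest p in each main comparison from the FGF/ERK and ETS lists, and every tested gene of the regulator, kidney and receptor lists. The nearest genes were the 5 with the highest Pearson r over log2 CPM, clone names and pseudogenes left out, and 1 of those of Etv1 is not reported here. FGF family genes were named after their values were seen.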

Additional observations from a re-analysis of the deposited data

Results flagged for a closer look

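For 10 genes the effect of the inhibitor (FGFRi against DMSO) differed from the effect of the deletion (HOM against WT and HET) by edgeR's test of the difference, in libraries not shared by the 2 comparisons. Values are the inhibitor effect minus the deletion effect on the log2 scale. Etv4 (-1.76, adjusted p = 1.30e-05) and Etv5 (-1.26, adjusted p = 2.00e-04) had the largest differences of the 10 on the lower side. The FGF and ERK response genes Epha2 (-1.05, adjusted p = 0.00222), Spry4 (-0.96, adjusted p = 0.00321), Shisa2 (-0.88, adjusted p = 0.00893), Egr1 (-1.11, adjusted p = 0.0178), Ccnd1 (-0.74, adjusted p = 0.0222) and Ier2 (-0.51, adjusted p = 0.0443) followed. The ETS genes Ets1 (-0.64, adjusted p = 0.0410) and Elf4 (1.09, adjusted p = 0.0452) made up the rest. Without any 1 of the 12 libraries, Etv4, Etv5, Epha2 and Spry4 kept their calls. The adjusted p reached 0.117 for Ets1 and 0.216 for Elf4 without 1 library, 0.0545 for Shisa2, 0.165 for Egr1, 0.134 for Ccnd1 and 0.250 for Ier2. Sex differed with genotype in the deletion arm and the 2 cannot be told apart there. A covariate for Y-linked counts can be estimated from the DMSO libraries alone, where only DMSO 2 had high counts (145 CPM), so that it cannot separate the 2. With that covariate, Etv4 (-1.71, adjusted p = 9.39e-05), Etv5 (-1.21, adjusted p = 0.00120), Epha2, Spry4, Shisa2 and Egr1 kept their calls. Ccnd1 (-0.60, adjusted p = 0.0976), Ier2 (-0.50, adjusted p = 0.107), Ets1 (-0.43, adjusted p = 0.179) and Elf4 (0.85, adjusted p = 0.129) lost theirs.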

How the results depend on the processing

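The falls of Etv1, Etv4 and Etv5 with the inhibitor kept direction and call in all 17 alternatives, with log2 changes of -2.13 to -0.86, -2.06 to -0.77 and -1.60 to -0.30. In the deletion comparison each member kept its call in 17 of 20 and its direction in all. Scaled to library totals, Etv1 in HOM was -0.65 (adjusted p = 0.0933), Etv4 in DMSO against WT 0.70 (0.123), and in HET against WT Etv4 was 0.097 and Etv5 0.064. Pan-epithelial scaling gave 0.12 and 0.089 for the last pair. Mesenchymal scaling gave Etv4 and Etv5 0.15 and 0.12 in HOM, Etv1, Etv4 and Etv5 -0.43, -0.59 and -0.62 in HET against WT (adjusted p = 0.134, 0.0113 and 0.00993), and Etv1 -0.93 in the inhibitor effect minus the deletion effect (0.0307). That difference was -0.51 (0.0297) with no filter. The covariate for Y-linked counts gave -0.61, 0.46 and 0.43 for Etv1, Etv4 and Etv5 in HOM and 0.49 for Etv4 in DMSO against WT (0.0965). Etv6 and Spry4 with the inhibitor were 0.19 and 0.048 under pan-epithelial scaling, and Elk3 was -0.23 under mesenchymal scaling. These causes were not tested.

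Genes called with the inhibitor (3245) became 1303 with library totals (1018 higher, 285 lower), 8385 with pan-epithelial (8213 higher) and 11455 with mesenchymal scaling (11159 lower), and 1694 with the Y covariate. Genes called in HOM (933) became 7048 with pan-epithelial (6946 higher) and 6312 with mesenchymal scaling (6106 lower), 1449 with no filter, 23 with the Y covariate, 1406 with the compared groups alone and 237 with HET alone as control. Genes called for the difference (439) became 169 with library totals, 228 and 3083 with pan-epithelial and mesenchymal scaling, and 1003 with no filter. For HET against WT (194) they became 324, 7945 and 655 under the last 3 settings, and for DMSO against WT (358) 797 with no filter. The medians of all genes moved by 0.44 and 0.37 with pan-epithelial scaling and by -0.86 and -0.40 with mesenchymal scaling, for the inhibitor and the deletion, and by 0.15 for the deletion with library totals.

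Without 1 library each, genes called ran from 1896 to 3099 for the inhibitor, 140 to 658 for HOM, 77 to 560 for the difference, 25 to 195 for HET against WT and 110 to 370 for DMSO against WT. In HOM, Etv1 ran from -0.91 to -0.68, Etv4 from 0.45 to 0.65 and Etv5 from 0.47 to 0.58, with calls lost without HOM 2. The Etv1 difference ran from -0.75 to -0.34, and Etv4 in DMSO against WT from 0.47 to 0.60. Etv1 and Etv5 in HET against WT ran from -0.025 to 0.22 and from -0.20 to 0.022, and Etv5 in DMSO against WT from -0.031 to 0.14.

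Same-numbered libraries did not deviate together (correlations of -0.146 to 0.0198), and the main fit paired no libraries. Where both groups have 2 libraries, both numbers give the same correlation, so that this check cannot exclude a shared litter or batch. A replicate block gave 277 genes called for the difference and changed no call of a member, with inhibitor effects of -1.33, -1.20 and -0.73 for Etv1, Etv4 and Etv5. With the WT numbers crossed, an alternative added after seeing the data, 825 genes were called in HOM and 198 in HET against WT. Depth limits the least covered value, 84 counts of Etv4 in FGFRi 1. Counts per gene do not separate isoforms, and 2 libraries a group leave wide intervals.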

Other observations

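Of 24 genes called lower with the inhibitor and higher in HOM, which include Etv4, Etv5 and Spry4, 5 were histone genes (Hist4h4, Hist1h2be, Hist1h4f, Hist1h2bf and Hist1h4i), whose near-identical copies can share reads. The genes of the 24 named here were chosen after their values were seen. Sema3b, a secreted semaphorin, had log2 changes of -1.01 with the inhibitor and 0.81 in HOM (edgeR adjusted p = 5.33e-05 and 7.77e-04), and the secreted protein gene Crispld2 had -1.49 and 1.89 (adjusted p = 8.03e-04 and 1.49e-04). The integrin gene Itga9 had -0.54 and 0.63, and the chromatin protein gene Hmga2 -0.90 and 0.77 (adjusted p of 1.04e-03 and 7.48e-04, and of 4.70e-04 and 0.00209). Eno1b, Gm13394 and Gm4735, predicted genes or gene copies, had 7.37, 3.48 and 5.82 on the log2 scale in HOM. Copies of a gene share reads, so that these values are uncertain.

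Among 8 tested FGF family genes, not all of them receptor ligands, 3 were called higher with the inhibitor, Fgf2, Fgf10 and Fgf13. In HOM 1 was called higher, Fgf10, and of all genes 9.73% and 3.44% were called higher in these comparisons. Fgf10, the mesenchymal ligand of the epithelial receptor isoform, averaged 70.3 ± 10.8 CPM in FGFRi and 23.9 ± 2.83 CPM in DMSO (SD, n = 3 each; edgeR adjusted p = 9.33e-06). It averaged 44.2 ± 6.53 CPM in HOM (SD, n = 2) and 29.6 ± 8.55 CPM in the 4 littermates (adjusted p = 0.0224). Against HET alone its log2 change was only 0.30 (edgeR adjusted p = 0.502). The lowest HOM library had 39.6 CPM and the highest HET library 41.7 CPM, while WT averaged 23.6 CPM. The mesenchymal sum moved with Fgf10 in both main comparisons, and the part of that sum in these values was not tested.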
